A study of Homo sapiens with 4 samples.

Results

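Vitamin A is turned into retinoic acid, a signal that patterns the embryonic heart, by a short series of proteins, and 9 of their genes were followed here. They were ALDH1A1, ALDH1A2 and ALDH1A3 (synthesis), DHRS3 (control of the precursor), CYP26A1 and CYP26B1 (breakdown), CRABP1 and CRABP2 (binding inside the cell) and STRA6 (uptake). They were selected by gene symbol, and all 9 of the 9 were found among the 23615 gene symbols of the table, each in a single row. Expression was measured by RNA-seq of poly-A RNA from unsorted day 14 cultures of RUES2, a line of human embryonic stem cells, with 2 biological replicates in each of 2 groups. Induction was the same for both (A100/B5), with activin A given at 100 ng/ml and then BMP4 at 5 ng/ml. In the CPC group the cells passed through cardiac progenitor cells (CPCs). In the ECsXAV group the cells were directed from day 2, in a medium with 200 ng/ml VEGF, bFGF and further BMP4, into hemogenic endothelial cells (ECs) and then given 2 µM XAV-939, a tankyrase inhibitor that lowers Wnt/β-catenin signaling, from day 5. The methods place XAV-939 at 1 µM on day 3 in some cardiac differentiations and do not say whether the CPC cultures sequenced here were among them. Per the methods of the study, CHIR-99021, a Wnt pathway activator, was used at induction, and the later medium of both groups was RPMI with B27, a supplement whose standard formulation contains retinyl acetate, a form of vitamin A. The groups therefore differed in medium and growth factors as well as in the use or time of XAV-939, and the sample names carry another prefix in each group, so these differences cannot be told apart.

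In embryonic tissue, retinol is oxidized to retinaldehyde, and the ALDH1A enzymes oxidize retinaldehyde irreversibly to retinoic acid. DHRS3 reduces retinaldehyde back to retinol, and the CYP26 enzymes, cytochrome P450 proteins, inactivate retinoic acid. CRABP2 carries retinoic acid to its receptors in the nucleus, while CRABP1 is linked with its turnover. In the developing heart, ALDH1A2 is the main source of the signal, which helps to set the posterior, atrial end of the heart tube, and the genes of CYP26A1 and DHRS3 are themselves switched on by retinoic acid.

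Retinoic acid receptors bind direct repeats of a 6-base element in DNA, and the promoter entries of the 9 genes in RefSeq (GRCh38.p14, 250 bases before to 50 bases after the start, 17 entries in all) were searched for such repeats on both strands. The element searched for was AGGTCA, or one of its variants, which were AGTTCA and, with another first base, GGGTCA and also the variant GGTTCA, and the repeats were taken as 2 elements in the same direction spaced by 1, 2 or 5 bases. No match overlapped another, apart from the 2 elements inside a repeat. The promoters of CRABP2, the 1 gene of the set called in the comparison below, and of CYP26A1, whose second entry held the only direct repeat found, are shown with each element in capitals.
CRABP2 promoter, chr1:156705735-156706034, minus strand: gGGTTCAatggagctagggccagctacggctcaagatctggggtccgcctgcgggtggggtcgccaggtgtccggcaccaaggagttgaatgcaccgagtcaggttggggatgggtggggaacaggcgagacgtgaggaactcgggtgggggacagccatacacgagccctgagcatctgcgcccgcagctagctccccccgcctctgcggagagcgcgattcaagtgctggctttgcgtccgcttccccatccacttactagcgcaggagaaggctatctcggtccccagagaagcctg
CYP26A1 promoter, chr10:93073643-93073942, plus strand: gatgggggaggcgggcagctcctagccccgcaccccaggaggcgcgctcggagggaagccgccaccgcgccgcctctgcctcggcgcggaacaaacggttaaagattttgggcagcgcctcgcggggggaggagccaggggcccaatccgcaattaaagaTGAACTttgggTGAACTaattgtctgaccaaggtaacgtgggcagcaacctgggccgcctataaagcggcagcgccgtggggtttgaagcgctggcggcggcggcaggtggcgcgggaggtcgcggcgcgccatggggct
In CYP26A1 the capitals mark 2 elements on the minus strand, which read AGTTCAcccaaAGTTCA there, a repeat with 5 bases between the elements, from base 161 to base 177 of the entry, and starting 90 bases before the start. A repeat with this spacing was present in 31 of 34796 promoter entries of the same length (0.0891%). CRABP2 held a single element at its far end, and a single element is common, being in 38.6% of all entries and in 7 of the 17 entries of these genes. DHRS3, induced by retinoic acid like CYP26A1, had single elements and no repeat. A match describes the letters of the window and is no evidence of binding.

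The FPKM deposited by the authors, fragments per kilobase of transcript scaled to the mapped fragments of each library, are per length, so levels of different genes may be compared. Read counts were not used here and total depth is unknown. Relative to ECsXAV replicate 1, the depth read from the steps of weakly expressed genes was 50.1% in ECsXAV replicate 2 and 86.9% and 79.8% in CPC replicates 1 and 2. Testing with limma on log2(FPKM + 1), CPC minus ECsXAV, covered the genes that averaged 1 FPKM or more over the 4 libraries. A gene was called at an adjusted p under 0.05 and a change over 2-fold, with Benjamini-Hochberg adjustment over all 12398 genes tested. With 2 libraries a group the smallest two-sided p of an exact permutation test on 1 gene is 0.33, and the p-values of limma borrow their estimate of spread from the other genes.

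Levels of the 9 genes spanned a wide range. By mean FPKM over the 4 libraries the order was CRABP2 (106), STRA6 (11.5), DHRS3 (5.94), CRABP1 (2.09), CYP26A1 (1.12), CYP26B1 (0.568), ALDH1A2 (0.152), ALDH1A1 (0.0625) and ALDH1A3 (0.0155). CRABP2 stood above 97.9% of all genes with a value above 0, STRA6 above 73.5% and DHRS3 above 59.4%. The lowest library of each of the 4 most abundant genes lay above the highest library of the next, except CRABP1 and CYP26A1, which overlapped. CYP26A1 and CYP26B1 overlapped too, as did the 3 synthesis genes, which all lay below CYP26B1. CRABP2 (binding) and STRA6 (uptake) were thus the most abundant of the set, and the 3 synthesis genes the least. Of the 9 genes, 5 passed the filter (CRABP2, STRA6, DHRS3, CRABP1 and CYP26A1) and 1 was called, CRABP2, beside 2.15% of all genes tested. In the direction of CRABP2, higher in CPC cardiomyocytes, 0.71% of all genes were called, and at any fold CRABP2 was again the 1 gene of the set with an adjusted p under 0.05, beside 2.89% of all genes. Libraries did not overlap between the groups for 3 of the 5 tested genes (CRABP2, CYP26A1 and, by a narrow margin, STRA6), beside 49.8% of all genes tested.

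**Figure D1:**
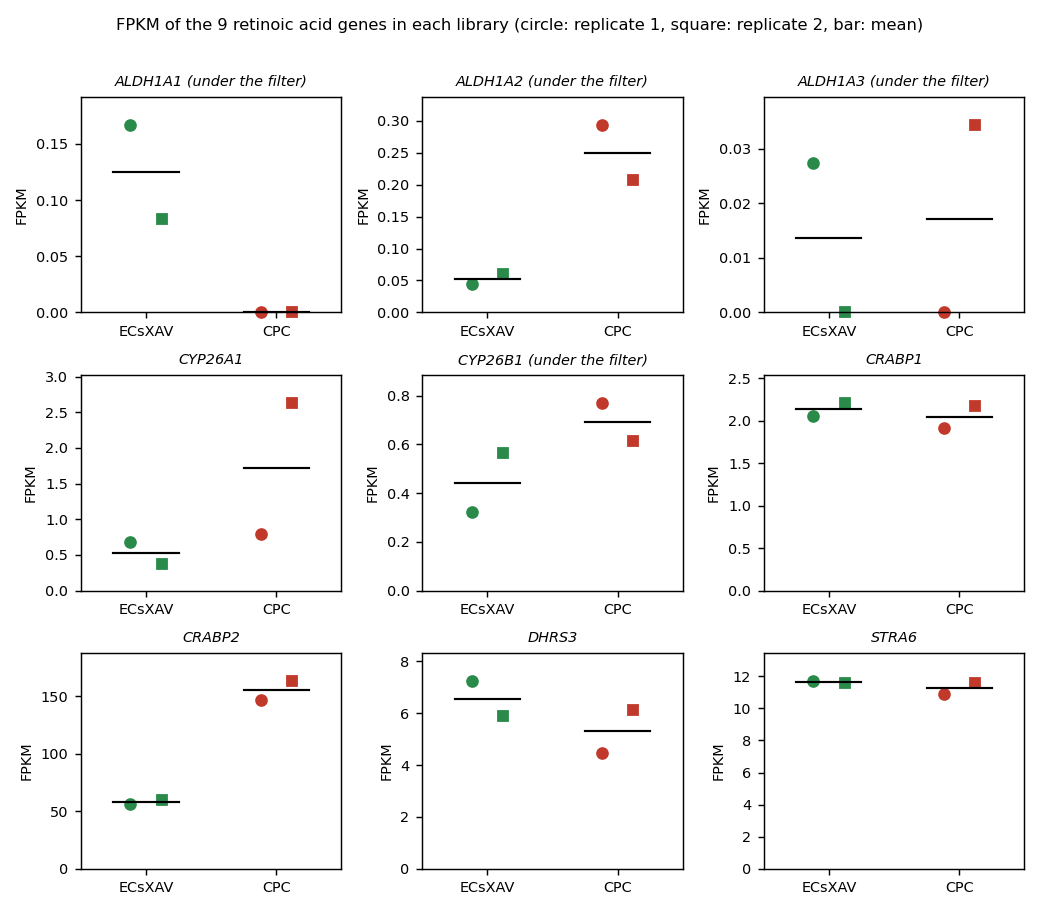
FPKM (linear axis from 0, a different scale in each panel) of the 9 genes in ECsXAV (green) and CPC (red) cardiomyocytes, with a circle for replicate 1, a square for replicate 2 and a bar for the mean of the 2 libraries. CRABP2 stands at 147 and 163 FPKM in the CPC libraries against 56.2 and 59.6 FPKM in the ECsXAV libraries, while STRA6 and CRABP1 lie close together in all 4 libraries.

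CRABP2, which delivers retinoic acid to its receptors, had 56.2 and 59.6 FPKM in the 2 ECsXAV libraries against 147 and 163 FPKM in the 2 CPC libraries. Both CPC libraries were well above both ECsXAV libraries, and the replicates of each group lay close together. Mean FPKM was 57.9 ± 2.43 (SD, n = 2) in ECsXAV and 155 ± 11.2 (SD, n = 2) in CPC cardiomyocytes, 2.67 times as much. On the log2(FPKM + 1) scale CRABP2 was higher in CPC cardiomyocytes by 1.40 (standard error 0.12, 95% interval 1.10 to 1.71, adjusted p = 0.0158 from limma). Among the 88 genes called higher in CPC cardiomyocytes it ranked 49th by fold change and 5th by mean FPKM. The gene lies on chromosome 1 from 156669398 to 156675608, minus strand (GRCh37, the build of hg19). In bulk RNA of unsorted cultures, fewer cells that express a gene and less RNA of it per cell cannot be told apart. The call, though not its size, depended on having all 4 libraries and on the filter. Without ECsXAV replicate 1 or 2 the log2 change of CRABP2 was 1.36 or 1.44 with an adjusted p of 0.122 or 0.104 from limma, without CPC replicate 1 or 2 it was 1.48 or 1.33 with 0.0851 or 0.0845, and with no filter it was 1.40 with 0.057.

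The genes whose centred log2(FPKM + 1) over the 4 libraries lay closest to CRABP2, among 12397 compared by Euclidean distance, were C3orf80, EPHB2 and BASP1, at distances of 0.04, 0.0883 and 0.103. C3orf80 was weakly expressed, with 0.285 and 0.379 FPKM in the 2 ECsXAV libraries against 2.45 and 2.72 FPKM in the 2 CPC libraries. Its CPC mean was 7.78 times its ECsXAV mean, against 2.67 times for CRABP2. Its closeness therefore depends on adding 1, which shrinks the change of weakly expressed genes. EPHB2, an ephrin receptor, had 4.21 and 4.99 FPKM in the 2 ECsXAV libraries against 13.3 and 14.3 FPKM in the 2 CPC libraries. BASP1, a membrane-bound signaling protein, had 17.4 and 20.5 FPKM against 49.9 and 55.9 FPKM. With 4 libraries this likeness describes a step between the groups and little else.

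CRABP1, the paralog of CRABP2, showed no such step. It had 2.06 and 2.21 FPKM in the 2 ECsXAV libraries against 1.91 and 2.18 FPKM in the 2 CPC libraries, so the groups overlapped. The log2 difference was -0.04 (95% interval -0.40 to 0.31, adjusted p = 0.908 from limma), an interval within 2-fold of FPKM + 1 in either direction. CRABP1 lies on chromosome 15 from 78632695 to 78640567 (GRCh37, plus strand). Of the summed FPKM of the 2 binding genes, CRABP2 made up 96.5% and 96.4% in the ECsXAV replicates and 98.7% in each CPC replicate. That sum was 58.3 and 61.9 FPKM in ECsXAV and 149 and 165 FPKM in CPC cardiomyocytes, libraries that do not overlap, with the smallest p the design allows (exact permutation test, two-sided, p = 0.33).

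STRA6, a membrane receptor that takes up retinol from its carrier RBP4, varied least over the 4 libraries among the 9 genes. It had 11.7 and 11.6 FPKM in the 2 ECsXAV libraries against 10.9 and 11.6 FPKM in the 2 CPC libraries. The log2 difference was -0.05 (standard error 0.10, 95% interval -0.32 to 0.22, adjusted p = 0.851 from limma). The interval excludes a change of 2-fold of FPKM + 1 in either direction. The same held for CRABP1 and DHRS3 among these genes and for 87.7% of all genes tested. In weakly expressed genes that bound still allows a larger change of FPKM. STRA6 lies on chromosome 15 from 74471807 to 74504608 (GRCh37, minus strand).

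DHRS3, which returns retinaldehyde to retinol, had 7.24 and 5.90 FPKM in the 2 ECsXAV libraries against 4.47 and 6.14 FPKM in the 2 CPC libraries. The lower ECsXAV library lay below the higher CPC library, so the groups overlapped. The log2 difference was -0.27 (standard error 0.18, 95% interval -0.74 to 0.20, adjusted p = 0.505 from limma). DHRS3 lies on chromosome 1 from 12627939 to 12678216 (GRCh37, minus strand).

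The 3 synthesis genes were all under the filter, at no more than 0.294 FPKM in any library, and were not tested in the main comparison. ALDH1A2, the main enzyme of this step in the embryonic heart, had 0.0451 and 0.060 FPKM in the 2 ECsXAV libraries against 0.294 and 0.207 FPKM in the 2 CPC libraries. Both CPC libraries were higher, with a mean of 0.251 ± 0.0615 against 0.0526 ± 0.0105 FPKM (SD, n = 2 in each group). ALDH1A1, another enzyme of the same reaction, had 0.167 and 0.0832 FPKM in ECsXAV replicates 1 and 2, and both CPC replicates listed it at 0. ALDH1A3, the third of these enzymes, had 0.0274 FPKM in ECsXAV replicate 1 and 0.0344 FPKM in CPC replicate 2 and was listed at 0 in the other two libraries. At the relative depth of the libraries, the ALDH1A1 values stand for reads in the ratio of 4, 1, 0 and 0, the ALDH1A3 values for 1, 0, 0 and 1, and the ALDH1A2 values for 3, 2, 17 and 11, the smallest whole numbers that give them within 5%. No fold change is given for ALDH1A1 or ALDH1A3. With no filter and a pseudocount of 0.1, a setting chosen after seeing the data, ALDH1A2 had a log2 difference of 1.19 (standard error 0.21) and an adjusted p of 0.131 from limma. Of the 4 genes under the filter, ALDH1A1, ALDH1A2 and CYP26B1 had groups without overlap, as had 40.3% of all genes with a mean between 0 and 1 FPKM.

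Summed over the 3 synthesis genes, FPKM was 0.239 and 0.143 in the ECsXAV replicates and 0.294 and 0.242 in the CPC replicates. ALDH1A1 was the larger part in ECsXAV cardiomyocytes, with 69.7% and 58.1% of this sum, while ALDH1A2 had 100% and 85.8% in the CPC replicates against 18.8% and 41.9% in the ECsXAV replicates. The libraries did not overlap for either share (exact permutation test, two-sided, p = 0.33, the smallest the design allows), and both shares rest on values whose read ratios are those given above, lowest for ALDH1A1. ALDH1A1 lies on chromosome 9 from 75515587 to 75695358 (minus strand), ALDH1A2 on chromosome 15 from 58245622 to 58790065 (minus strand) and ALDH1A3 on chromosome 15 from 101417919 to 101456831 (plus strand), all on GRCh37.

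CYP26A1, the breakdown enzyme whose promoter holds the repeat shown above, had 0.683 and 0.376 FPKM in the 2 ECsXAV libraries against 0.798 and 2.63 FPKM in the 2 CPC libraries. All of its CPC values were above its ECsXAV values, but CPC replicate 1 lay near ECsXAV replicate 1, and CPC replicate 2 was 3.29 times as high as CPC replicate 1. The log2 difference was 0.75 (standard error 0.37, 95% interval -0.21 to 1.70, adjusted p = 0.38 from limma), an interval that includes both no change and changes over 2-fold. Adding 1 shrinks the change of a gene this weakly expressed. At a pseudocount of 0.1 the difference was 1.36 (standard error 0.67, adjusted p = 0.371 from limma), again not called. With 1 added, the difference of CYP26A1 was 0.24 without CPC replicate 2 and 1.25 without CPC replicate 1. CYP26B1, the other breakdown enzyme, was under the filter with 0.324 and 0.563 FPKM against 0.770 and 0.615 FPKM. Both CPC libraries were above both ECsXAV libraries, by a margin smaller than the spread within either group. The share of CYP26B1 in the summed FPKM of the 2 genes ran from 19.0% in CPC replicate 2 to 59.9% in ECsXAV replicate 2, with overlapping groups. CYP26A1 lies on chromosome 10 from 94833232 to 94837642 (plus strand) and CYP26B1 on chromosome 2 from 72356367 to 72374991 (minus strand), both on GRCh37.

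**Figure D2:**
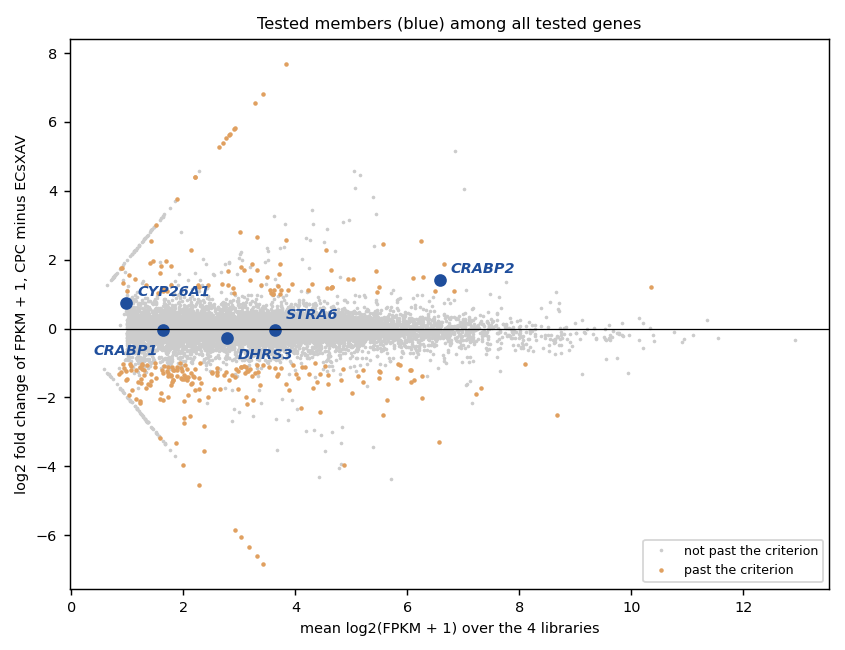
Log2 fold change of FPKM + 1, CPC minus ECsXAV (vertical axis), against the mean log2(FPKM + 1) of the 4 libraries (horizontal axis) for the 12398 tested genes, in grey or, past the criterion, in orange. The 5 tested retinoic acid genes are in blue; CRABP2 stands apart at 1.40, and STRA6, CRABP1 and DHRS3 lie between -0.27 and -0.04, within the bulk of genes.

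Per annotated RefSeq transcript, the 9 genes had 21 transcripts, of which 7 had a mean of at least 1 FPKM. None of the 7 was called by limma over the 16504 transcripts tested, where 0.0727% of all transcripts were, and 1 had an unadjusted p under 0.05. That one was the main transcript of CRABP2, NM_001199723, with 52.5 and 45.1 FPKM in the 2 ECsXAV libraries against 143 and 163 FPKM in the 2 CPC libraries (log2 difference 1.63, standard error 0.14, adjusted p = 0.0951 from limma). Its other transcript, NM_001878, had 3.65 and 14.6 FPKM against 3.96 and 0.00249 FPKM. The replicates of NM_001878 disagreed in both groups, and its share of CRABP2 was 6.5% and 24.4% in ECsXAV and 2.69% and 0.00153% in CPC cardiomyocytes. Of the 8 transcripts of STRA6, NM_022369 held 67.6% and 71.2% in the ECsXAV replicates and 67.5% and 71.6% in the CPC replicates. ALDH1A2 was read almost wholly as NM_170697, at 99.9% or more of its FPKM in each library. For CYP26A1, NM_000783 held 69.9% in CPC replicate 1 and 100% in the other libraries. ALDH1A1, ALDH1A3, CYP26B1, CRABP1 and DHRS3 each had 1 transcript in the table.

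**Figure D3:**
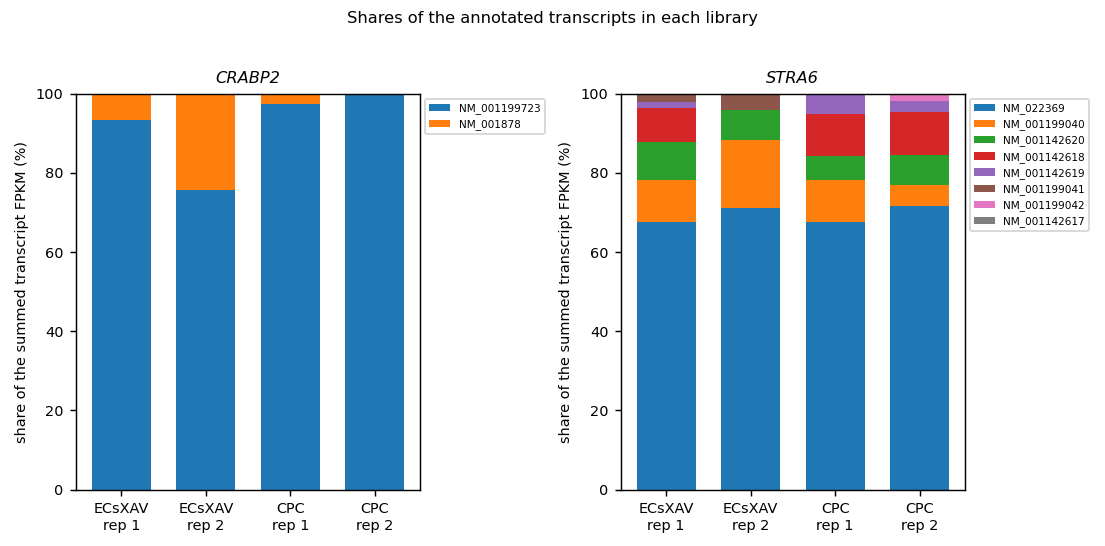
Share of each RefSeq transcript in the summed transcript FPKM (vertical axis, percent, from 0 to 100) of CRABP2 and STRA6 in the 4 libraries, 1 bar per library. NM_001199723 makes up 75.6% to 100% of CRABP2, and NM_022369 makes up 67.5% to 71.6% of STRA6.

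Around these 9 genes, 37 genes of retinoid transport, storage and oxidation were read from the same fit. Of these, 15 passed the filter and 7 were listed at 0 in all 4 libraries. Of the 15, 1 was called, beside 2.15% of all genes tested, with a median log2 difference of -0.06 beside 0.00 for all genes tested. The called gene was TTR, the blood carrier of retinol and thyroid hormone, with 3.92 and 2.23 FPKM in the ECsXAV replicates, 0 in CPC replicate 1 and 0.0779 FPKM in CPC replicate 2 (log2 difference -1.94, adjusted p = 0.0358 from limma). It was not called without CPC replicate 1 or 2, with adjusted p of 0.159 and 0.147 from limma, and its difference was -4.52 at a pseudocount of 0.1. Among the most abundant genes of the list were ADH5, a dehydrogenase, SCARB1, a lipoprotein receptor, and RDH11, a retinaldehyde reductase, with log2 differences of -0.20, -0.15 and -0.12. RBP4, the carrier that STRA6 binds, had 0.124 FPKM in each ECsXAV replicate, and both CPC replicates listed it at 0. RDH10, which makes the retinaldehyde that DHRS3 removes and was named after its values were seen, had 1.92 and 2.09 FPKM against 3.94 and 2.64 FPKM (log2 difference 0.50, adjusted p = 0.27 from limma). CYP26C1, the third breakdown enzyme, was listed at 0 in all libraries.

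All 10 receptor and corepressor genes passed the filter and none was called by limma, beside 2.15% of all genes tested. Of the 10, 2 had an unadjusted p under 0.05 from limma (RXRG and NRIP1), beside 2262 of all 12398 genes. Their median log2 difference was 0.09. RXRG, a partner receptor of the retinoic acid receptors, was the most abundant, with 84.7 and 84.5 FPKM in the 2 ECsXAV libraries against 140 and 165 FPKM in the 2 CPC libraries (log2 difference 0.84, adjusted p = 0.0492 from limma), a change under 2-fold. The receptors RXRB and RARA, also among the most abundant, had log2 differences of 0.05 and 0.42. RARB, a receptor gene that retinoic acid induces, was the 1 other gene of these lists with a direct repeat in a promoter entry, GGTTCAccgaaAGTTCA (chr3:25428013-25428312, GRCh38.p14, plus strand, bases 198 to 214), among 59 of the 83 genes of the retinoid lists found in the promoter table. RARB had 3.75 and 3.78 FPKM in the 2 ECsXAV libraries against 5.93 and 4.03 FPKM in the 2 CPC libraries. The difference was not called (0.31, adjusted p = 0.466 from limma). Its groups did not overlap, by a narrow margin, as in 49.8% of all genes tested. Any link between the repeat and the levels was not tested.

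Of 30 genes known to respond to retinoic acid in embryonic tissue or cell lines, 13 passed the filter. Of these, 4 were called, 2 in each direction, beside 2.15% of all genes tested. Their median log2 difference was 0.31, beside 0.00 for all genes tested. The list was chosen with earlier results of these data known, so its share of calls was not tested. HOXB4 and HOXB3, homeobox genes of body axis patterning, were higher in CPC cardiomyocytes, by log2 differences of 1.82 (adjusted p = 0.013 from limma) and 1.02 (adjusted p = 0.0492 from limma). At a pseudocount of 0.1 these differences were 2.58 and 1.16. HOXB4 had 0.740 and 0.935 FPKM in the 2 ECsXAV libraries against 5.68 and 5.26 FPKM in the 2 CPC libraries, and HOXB3 had 4.37 and 4.17 FPKM against 11.1 and 8.45 FPKM. RAI14, a protein of the actin cytoskeleton, and RARRES2, a secreted chemoattractant, were lower there, by a log2 difference of -1.98 (adjusted p = 0.0073 from limma) and -1.74 (adjusted p = 0.0354 from limma). Of TGM2, MEIS2 and TBX5, among the most abundant of the others, MEIS2, a homeobox cofactor, differed by 0.97 on the log2 scale (adjusted p = 0.0345 from limma), just under 2-fold, and TGM2, a transglutaminase, by -0.46, which was not called. Leaving out any 1 library gave HOXB4, HOXB3 and RARRES2 adjusted p from limma of 0.0504 to 0.104, 0.0985 to 0.287 and 0.0861 to 0.156, so none of these 3 calls held. RAI14 was called without ECsXAV replicate 2 (adjusted p = 0.0484 from limma) and had up to 0.0851 without each of the others.

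**Figure D4:**
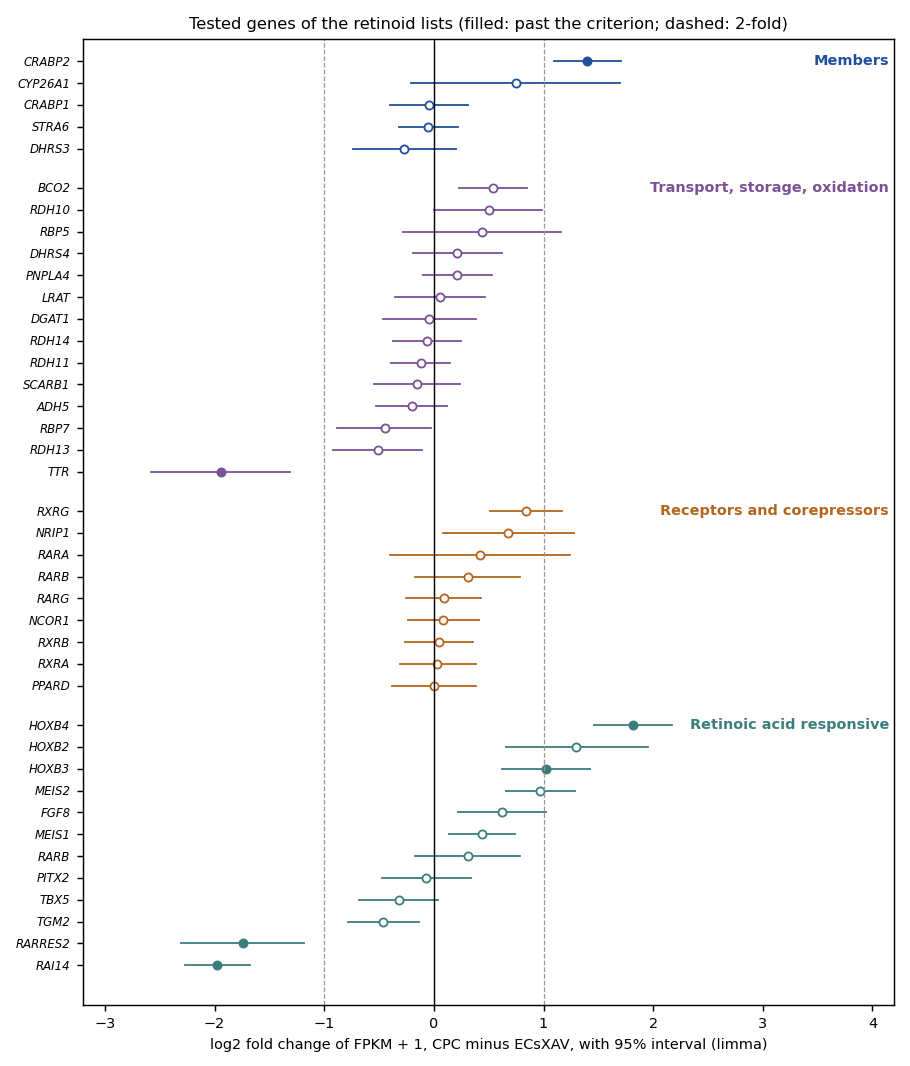
Log2 fold change of FPKM + 1, CPC minus ECsXAV (horizontal axis), with the 95% interval of limma, for the tested genes of the 4 lists that are reported here; filled points passed the criterion and dashed lines mark 2-fold. Among the 5 tested of the 9 genes the interval of CRABP2 (1.10 to 1.71) lies above 1, that of CYP26A1 (-0.21 to 1.70) is the widest, and RARB appears in 2 lists.

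Markers of the labelled cell type were high in all libraries, with TNNT2, the cardiac troponin T, at 2310 to 2990 FPKM. They were not all level between the groups. Of the 8 cardiomyocyte markers, all tested, 3 were higher and 5 lower in CPC cardiomyocytes, and 1 was called. This was MYH6, with 855 and 857 FPKM in ECsXAV against 2070 and 1900 FPKM in CPC cardiomyocytes (adjusted p = 0.0358 from limma). Each count of called markers here stands beside 2.15% of all genes tested. The 6 atrial markers summed to 282 and 352 FPKM in ECsXAV against 40.3 and 50.3 FPKM in CPC cardiomyocytes, with 1 of 3 tested called lower there. This was NPPA, which made up most of the sum at 264 and 331 FPKM against 26.1 and 32.4 FPKM, while KCNA5 and TBX5 differed by 0.02 and -0.32 and were not called. The study tested read counts instead, with DESeq, and names TBX5 among cardiac genes that differed significantly between these groups. The 4 ventricular markers also had lower sums in CPC cardiomyocytes, at 182 and 244 FPKM against 1130 and 1050 FPKM, with 2 called of 4 tested (MYL2 and MYH7). Markers of some other cell types also differed between the groups. The 9 paraxial mesoderm and skeletal muscle markers summed to 1.68 and 3.02 FPKM in the 2 ECsXAV libraries against 9.65 and 7.94 FPKM in the 2 CPC libraries. Of these, 1 was called of 2 tested, UNCX, with 0.0972 and 0.129 FPKM against 6.27 and 4.71 FPKM, and PAX7 and MYF5 were at 0 throughout. The 8 hepatic and endodermal markers, TTR among them, summed to 38.1 and 31.7 FPKM against 17.1 and 19.2 FPKM, with 2 of 3 tested called lower in CPC cardiomyocytes (AFP and TTR). Most of the difference was AFP, at 11.4 and 9.7 FPKM against 0.199 and 0.124 FPKM. APOA1, most of the CPC sums, was not called (log2 difference -0.18). Of those not tested, ALB overlapped between the groups, while APOB, FOXA2, SOX17 and TF had lower means in CPC cardiomyocytes. In the CPC libraries ALDH1A1 and RBP4 were listed at 0. The 7 fibroblast and mesenchymal markers summed to 117 and 152 FPKM against 65.5 and 54.8 FPKM, with 3 of 5 tested called lower in CPC cardiomyocytes. The 8 epicardial markers, cells that make ALDH1A2 in the embryo, summed to 2.46 and 2.23 FPKM against 1.11 and 1.02 FPKM, with most of the difference in TBX18 (1.49 and 1.49 FPKM against 0.444 and 0.348 FPKM) and none of the 8 tested. The 8 endothelial markers summed to 12.7 and 11.4 FPKM against 14.3 and 11.1 FPKM. Most of this sum was KDR, at 9.8 and 7.06 FPKM against 10.8 and 8.69 FPKM, so it says little of the other endothelial markers. Of the 8, 3 were tested and 0 called, with log2 differences of 0.20 for KDR, 0.35 for EMCN and -0.41 for CDH5. The other 5 stayed under 1 FPKM in all libraries. The part of any of these markers' cells in the values of the 9 genes was not tested.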

How the data were processed

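The authors deposited FPKM per gene and per RefSeq transcript for 4 libraries. Per the methods of the study these were made with Cufflinks (version 2.1.1), UCSC annotation of genes and hg19, while the submitters' processing notes name TopHat 1.3.3 and Cufflinks. Filters, scaling between libraries and the handling of reads with several alignments are not given in the sources used here for the FPKM. The counts behind the study's own DESeq test were not used here. Groups came from the sample labels, and replicate numbers from the sample titles.

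Where a symbol had more than 1 locus, the locus with the highest FPKM on average was kept. Fold changes, intervals and p-values came from limma 3.58.1 (R 4.3.3), fitted to log2(FPKM + 1) of the 12398 genes averaging 1 FPKM or more, with the prior variance following expression level. Adding 1 shrinks the fold change of weakly expressed genes. Intervals are at 95%. Relative depth came from the modal ratio, between libraries, of the FPKM of genes with 1 transcript at 0.005 to 0.1. Python 3.11.15 with NumPy 2.4.6 and pandas 2.3.3 made the tables, and matplotlib 3.10.9 drew the figures. Gene coordinates came from GENCODE release 44 lifted to GRCh37 and promoters from RefSeq on GRCh38.p14, in which all 9 genes were matched by symbol. The limma fit alone was tested on simulated data. There every gene had the same spread and changes were placed only in well expressed genes, so the test does not cover genes of unequal spread.

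The 9 genes and the lists were chosen with earlier results of these data known. Named are the 9 genes, the called genes of each retinoid list with its 4 most abundant others (2 genes so chosen are not reported here), and the 3 genes closest in pattern to a called gene; RDH10, RBP4, CYP26C1, RARB and NRIP1 were added after their values were seen. The alternatives were quantile normalization, scaling by median of ratios, a pseudocount of 0.1, filters of 0 and 5 FPKM in place of 1, a prior without trend, short RNA genes left out, the replicate number as a block, gene values summed from the transcript table, and each replicate left out in turn. Where short RNA genes were left out, genes with symbols starting MIR or SNOR were dropped. Genes at 0 in 1 replicate of a group and at 5 FPKM or more in the other were dropped with them.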

Additional observations from a re-analysis of the deposited data

How the results depend on the processing

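The alternatives of no filter with a pseudocount of 0.1, and of the replicate block with short RNA genes left out, were chosen after seeing the data. Of the 9 genes, CRABP2 was called under every other alternative that kept all 4 libraries except no filter, where 0 of the 9 were called by limma (3 with an unadjusted p under 0.05), as with no filter and a pseudocount of 0.1 (0, and 3). Over its alternatives the log2 difference of CRABP2 ran from 1.33 to 1.48. CRABP1 ran from -0.10 to 0.02 with 1 library left out, and changed sign without CPC replicate 1 (0.02). No other of the 5 tested genes changed sign. Leaving out 1 library assumes that the lone library of a group varies like those of the other group, and it gave 0 called of the 9 genes each time (1 or 2 with an unadjusted p under 0.05), 50 to 118 called of all genes, and 0 to 2 called of the other retinoid genes (0 to 1 in transport, storage and oxidation and 0 to 1 among responsive genes), against 1, 266, 5, 1 and 4 with all libraries. Over all genes, 20 were called with no filter, 35 with no filter and a pseudocount of 0.1, 152 at a mean of at least 5 FPKM and 176 with the replicate block. Of the other retinoid genes, 0 were called with no filter, 1 with no filter and a pseudocount of 0.1, 2 at a mean of at least 5 FPKM, 3 with quantile normalization and 3 with the replicate block, and in each of these TTR, the 1 called gene of transport, storage and oxidation, was lost (0 called). Of the responsive genes, 0 were called with no filter, 1 with no filter and a pseudocount of 0.1, and 2 at a mean of at least 5 FPKM. At a mean of at least 5 FPKM, TTR (mean 1.56 FPKM) and HOXB4 (mean 3.15 FPKM) fell under the filter and had no test. What caused the other differences between settings was not tested. Replicate numbers share only a number in the labels. Between the groups, the differences of replicate 1 from replicate 2 had a rank correlation of 0.356 across 12398 genes (Pearson's r 0.035), while the 12071 genes left without short RNA genes gave 0.378 by rank and 0.303 by Pearson's r, and genes are not independent replicates. With the replicate block CRABP2 had an adjusted p of 0.0296 from limma, and with the block and short RNA genes left out 345 genes were called. Total depth is unknown, and the values of ALDH1A1 and ALDH1A3 include libraries listed at 0, which gives their differences no bound here.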
